A study of Mus musculus with 10 samples.

Results

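The 8 genes described here, Spo11, Gm960 (also called Top6bl), Prdm9, Zcwpw1, Mei1, Mei4, Rec114 and Ankrd31, act in the formation of programmed DNA breaks in meiosis or at the sites where those breaks form. They were chosen for this role, with earlier results of these data known. They are 8 of 28125 genes in the scRNA-seq matrix and 8 of 30670 in the scATAC-seq matrix, and all 8 passed the filter on low RNA values. RNA and accessible chromatin were read from nuclei of mouse testes with the BD Rhapsody system, with 1 library per condition and assay. The juvenile testes were wild type and were taken at 11, 17 and 25 days post partum (dpp). The adult testes were from 8-week-old Cre/+ mice, which carry the Stra8-Cre driver alone, and from 8-week-old Nfya-CKO mice, which are Nfya fl/fl with Stra8-Cre on a C57BL/6J background. The driver allele also encodes the fluorescent protein ZsGreen1. Stra8-Cre acts in male germ cells, where it removes part of Nfya, and Sertoli and other somatic cells keep the gene. The number of animals per library is not given in the sources used here. The deposited matrices hold 1 value per gene for each of 13 cell populations that the authors named from marker genes, pooled over libraries. Spermatogonia form an undifferentiated population (undiff. SpG), a differentiating population (diff. SpG) and the population of the library labelled Nfya-CKO (SpG Nfya-CKO). Spermatocytes are divided into pL (preleptotene), eL/L/Z (early leptotene to zygotene), L/Z/eP (leptotene to early pachytene), mP/lP (pachytene, middle to late) and D (diplotene), and spermatids into RS (round) and ES (elongating). The others are Sertoli cells, other somatic cells and an unknown group.

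Meiotic recombination starts when SPO11, with its partner TOPOVIBL, the product of Gm960, cuts both strands of the DNA in leptotene spermatocytes. In mice the sites are chosen by PRDM9, a zinc finger protein that methylates histone H3 at the sequences it binds, and ZCWPW1 reads these marks and is needed for the repair of the breaks. MEI1, MEI4, REC114 and ANKRD31 are accessory proteins that gather on chromosome axes, where MEI4 and REC114 form a complex that ANKRD31 binds. Mouse Spo11 gives an early and a late splice form, and the deposited values do not separate them. Male mice without Spo11, Gm960, Mei1, Mei4 or Rec114 arrest in meiosis and are sterile.

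Library totals ranged from 30227701 to 64967271 UMIs, and the populations held between 99 and 8107 scRNA-seq cells. The population compared most below, SpG Nfya-CKO, held 491 cells from 1 library, with a median of 18361 UMIs, and undiff. SpG held 1292 cells with a median of 9290. Of the undiff. SpG cells, 92.0% came from the wild-type juvenile libraries, as did 99.7% of pL cells, whereas 84.5% of diff. SpG cells came from adult Cre/+ testis. Genotype and age therefore cannot be told apart where SpG Nfya-CKO is compared with undiff. SpG or pL. Libraries shared cell barcodes: 3813 barcodes were present in both adult libraries, which is 74.0% of the cells of the library labelled Nfya-CKO. Among SpG Nfya-CKO, 175 cells carried a barcode that was also listed in Cre/+, and 143 of the 175 Cre/+ entries were named diff. SpG, out of 925 diff. SpG cells with a library name. The median depth of those 175 cells was 21471 UMIs, against 2275 for their Cre/+ entries. The controls were affected too. A barcode listed in another library was carried by 49.1% of diff. SpG cells (65.1% of UMIs) and 32.5% of undiff. SpG cells (53.7%). For pL it was 19.0% (34.5%). Since the matrices are pooled, no value could be given without the cells with shared barcodes. Markers of undiff. SpG (Zbtb16, Gfra1, Id4, Sall4 and Uchl1) summed to 21.3 UMIs per 10000 in undiff. SpG and 18.8 in SpG Nfya-CKO, but they moved apart, with Zbtb16 at 8.74 and 4.15, Sall4 at 4.88 and 2.08, Id4 at 0.682 and 0.290, Gfra1 at 1.08 and 1.20 and Uchl1 at 5.88 and 11.0 in these populations. Uchl1 stood at 4.87 in other somatic cells. The 10 markers of other somatic cells summed to 0.547 in undiff. SpG, 49.6 in SpG Nfya-CKO and 222 in other somatic cells, with Insl3, a Leydig cell gene, at 39.8 in SpG Nfya-CKO and none of the 10 at 0 there. The targeted gene was not lower under its label, since Nfya stood at 1.11 UMIs per 10000 (95% counting interval 1.03 to 1.18) in SpG Nfya-CKO and at 0.456 (0.412 to 0.502) in undiff. SpG, and the values do not show which exons were read. With 1 library per condition no test across samples could be run, so differences are described by size, and every interval covers counting error only.

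RNA levels are given as mean UMIs per 10000 UMIs of a cell with the 95% counting interval in parentheses, and they are compared within a gene only, because the values are not per length. The catalytic subunit gene Spo11 (GRCm38, chr2:172977700-172993576 on the plus strand) stood at 0.156 (0.131–0.184) in undiff. SpG, 0.334 (0.282–0.393) in diff. SpG and 0.0993 (0.0824–0.119) in pL. It reached 0.363 (0.325–0.405) in eL/L/Z, 0.715 (0.668–0.763) in L/Z/eP, 0.999 (0.964–1.04) in mP/lP and 0.887 (0.831–0.945) in D. Spo11 was the only member with its highest level in mP/lP, and its lowest germ cell level was in pL. In spermatids it stood at 0.607 (0.567–0.649) in RS and 0.532 (0.446–0.631) in ES, whose intervals overlap. Free RNA can give UMIs in cells that do not express a gene, and Spo11 stood at 0.0278 in Sertoli cells and 0.266 (0.232–0.303) in other somatic cells, of which 70.1% carried a barcode listed in another library. Its levels in undiff. SpG, in pL and in SpG Nfya-CKO lay under that of other somatic cells and are not read as expression, and its diff. SpG interval overlaps that of other somatic cells. Of the other somatic cells 78.8% came from the library labelled Nfya-CKO, and of the Sertoli cells 99.9% from juvenile libraries. The undiff. SpG and pL levels lay above the Sertoli level, and which level measures the free RNA in these mostly juvenile populations was not tested. The lower level in pL than in diff. SpG went with the makeup of the populations: the 4 markers of elongating spermatids summed to 9.88 UMIs per 10000 in diff. SpG and 0.0149 in pL, and their part in the difference was not tested.

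Gm960, the gene of the SPO11 partner (chr19:4625734-4698668 on the minus strand), had another pattern. Its level was 0.336 (0.299–0.376) in undiff. SpG, 0.529 (0.463–0.602) in diff. SpG and 0.591 (0.549–0.636) in pL, and it was highest in eL/L/Z at 0.920 (0.858–0.985) and in L/Z/eP at 0.922 (0.869–0.977), which did not differ beyond their counting intervals. It was 0.254 in mP/lP, 0.432 in D, 0.1996 in RS and 0.157 in ES. Gm960 thus stood highest before mP/lP and Spo11 in mP/lP. Their products work as a complex, but the Spo11 values do not separate its early and late splice forms. Levels of Gm960 in Sertoli and other somatic cells were 0.101 and 0.135, and only ES among the germ cell populations overlapped the latter.

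Of the genes that act at break sites, Prdm9 (chr17:15543079-15564354 on the minus strand) was lowest in undiff. SpG and highest in L/Z/eP. It stood at 0.122 (0.0998–0.147) in undiff. SpG, 0.618 (0.547–0.696) in diff. SpG, 0.974 (0.920–1.03) in pL, 1.16 (1.09–1.24) in eL/L/Z and 1.22 (1.16–1.28) in L/Z/eP. Prdm9 was 0.224 (0.207–0.242) in mP/lP, 0.467 (0.427–0.510) in D, 0.202 (0.179–0.227) in RS and 0.245 (0.187–0.314) in ES. In Sertoli cells and other somatic cells it stood at 0.162 (0.148–0.178) and 0.164 (0.138–0.194), above the undiff. SpG value, so Prdm9 in undiff. SpG is not read as expression. Its RS and ES intervals overlap that of other somatic cells. Zcwpw1 (chr5:137787798-137822621 on the plus strand) was already present in undiff. SpG at 1.28 (1.20–1.35), against 0.329 in Sertoli and 0.403 in other somatic cells. It was 1.65 (1.53–1.78) in diff. SpG, 1.81 (1.74–1.89) in pL, 2.08 (1.99–2.18) in eL/L/Z and 1.95 (1.87–2.03) in L/Z/eP, each overlapping the next in order of level. Its level in mP/lP was 0.789, in D 1.01, in RS 0.556 and in ES 0.644. The highest level was 3.75-fold over the lowest, and all 9 germ cell levels lay above those of Sertoli and other somatic cells.

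The accessory genes were highest at different stages. Mei1 (chr15:82069996-82126814 on the plus strand), whose product is needed for breaks to form, stood at 0.352 (0.314–0.393) in undiff. SpG, 0.977 (0.886–1.07) in diff. SpG, 1.18 (1.12–1.24) in pL, 1.19 (1.12–1.26) in eL/L/Z and 0.737 (0.690–0.787) in L/Z/eP. It was between 0.217 and 0.379 in mP/lP, D, RS and ES, against 0.125 in Sertoli and 0.173 in other somatic cells. Its mP/lP interval (0.201–0.235) overlaps that of other somatic cells (0.146–0.203). Mei1 was therefore already near its highest level in pL. Mei4 (chr9:81863670-82206007 on the plus strand) stood at 0.538 (0.491–0.589) in undiff. SpG, 0.562 (0.494–0.637) in diff. SpG, 0.917 (0.864–0.972) in pL, 0.726 (0.671–0.784) in eL/L/Z and 0.367 (0.334–0.403) in L/Z/eP. From mP/lP on it lay between 0.0699 and 0.182, against 0.113 in Sertoli and 0.109 in other somatic cells, so its level in ES and in mP/lP is not read as expression. Rec114 (chr9:58652850-58743964 on the minus strand), the partner of Mei4, stood at 0.338 (0.301–0.379) in undiff. SpG, 0.279 (0.232–0.333) in diff. SpG, 0.392 (0.358–0.429) in pL, 0.238 (0.207–0.272) in eL/L/Z and 0.118 (0.0995–0.139) in L/Z/eP. Later germ cells held 0.0585 to 0.0845, against 0.0785 in Sertoli cells, and the pL and undiff. SpG intervals of Rec114 overlap. Mei4 and Rec114 were thus highest in pL and already lower in eL/L/Z, with intervals apart, while the other 6 genes were not lower there. From pL to eL/L/Z, 16.8% of all tested genes had a lower log2 ratio (defined below) than Mei4, and 5.50% a lower one than Rec114. The share of all genes with intervals apart at this step was not computed, so the count of members is a description only. Ankrd31 (chr13:96748272-96910039 on the plus strand) stood at 3.14 (3.03–3.26) in undiff. SpG, 3.52 (3.34–3.70) in diff. SpG, 2.76 (2.67–2.86) in pL, 4.86 (4.72–5.01) in eL/L/Z and 6.52 (6.38–6.66) in L/Z/eP. It was 4.20 in mP/lP, 4.07 in D, 2.56 in RS and 1.501 in ES, with 0.521 in Sertoli cells and 1.08 in other somatic cells. Its L/Z/eP interval overlapped that of no other population.

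**Figure D1:**
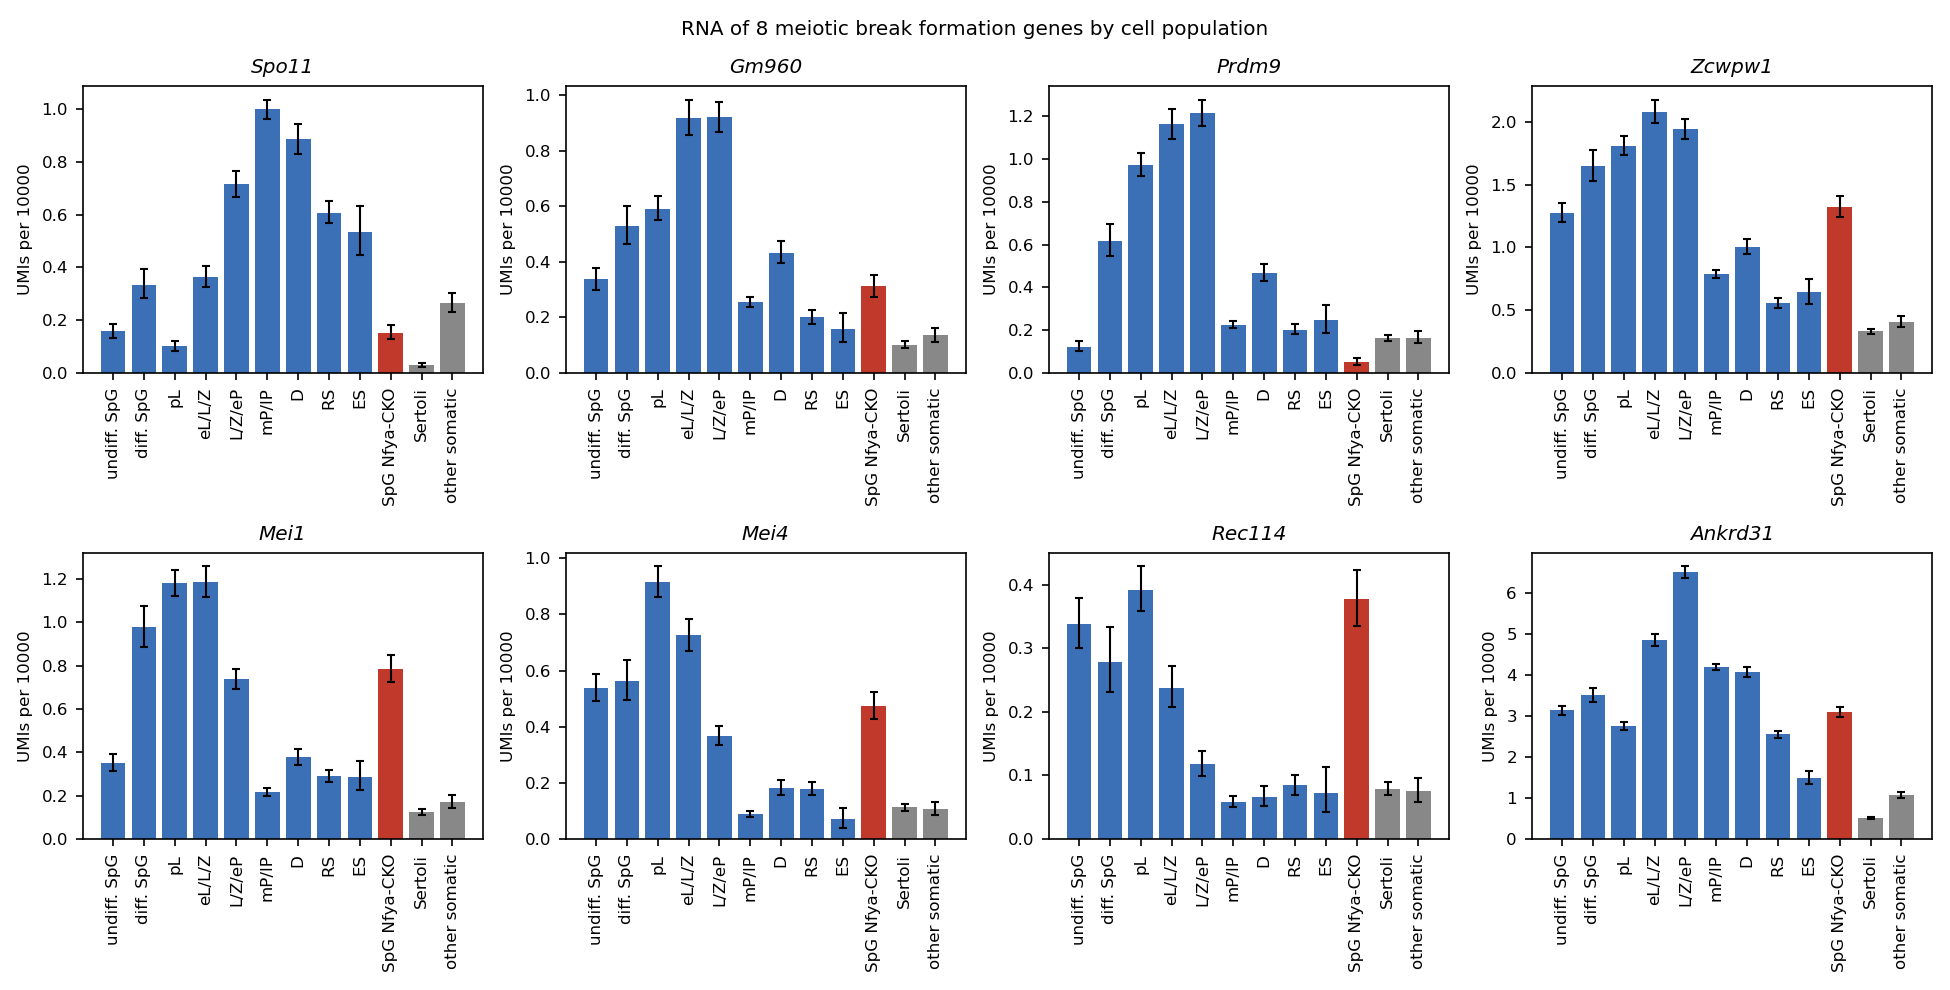
Mean RNA level (UMIs per 10000, linear axis from 0, own axis for each gene) of the 8 genes in 9 control germ cell populations (blue), SpG Nfya-CKO (red) and Sertoli and other somatic cells (grey), with 95% counting intervals as error bars. Spo11 was highest in mP/lP at 0.999, Mei4 and Rec114 in pL at 0.917 and 0.392, and the other 5 genes in eL/L/Z or L/Z/eP.

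Across the 8 genes, 5 were highest in eL/L/Z or L/Z/eP, against 9.64% of the 15250 genes tested. Highest in pL were 2 of 8, against 17.8%, and in mP/lP 1 of 8, against 11.3%, which are near these shares. When each population was centred on its median gene, 4 were highest in eL/L/Z or L/Z/eP, because the highest centred value of Mei1 was in pL. By pL, 7 of the 8 genes had reached 50% of their highest germ cell level, all but Spo11, as had 68.7% of all tested genes, and 5 had reached 75% (all but Spo11, Gm960 and Ankrd31), as had 56.4%. Changes between neighbouring stages were called at 2-fold on the log2 scale after adding 0.1 UMIs per 10000, which understates the change of low genes. When 12 populations (all but the unknown group) were ranked by level, the counting intervals of neighbours overlapped in 10 of 11 pairs for Rec114, 7 for Gm960 and Mei1, 6 for Mei4, 5 for Prdm9 and Zcwpw1, 4 for Spo11 and 2 for Ankrd31, so the order was least resolved for Rec114. From undiff. SpG to diff. SpG, Prdm9 (log2 1.70, from a value not read as expression) and Mei1 (1.252) were higher, and 9.57% of all tested genes passed this fold in that direction and 6.28% in the other, where no member passed. From diff. SpG to pL, only Spo11 passed, with a log2 ratio of -1.12 between an interval that overlaps that of other somatic cells and a level under it, so nothing is read from it, beside 10.9% of all genes that were lower, and no member was higher, beside 1.27%. From pL to eL/L/Z, Spo11 was higher (log2 1.22), from a pL level that is not read as expression, beside 4.41%, and none was lower, beside 0.59%. No member passed between eL/L/Z and L/Z/eP, where 5.45% of all genes were higher and 3.97% lower. The step from L/Z/eP to mP/lP was where most members were lower: Prdm9 (log2 -2.02), Gm960 (-1.53), Mei1 (-1.40), Mei4 (-1.30) and Zcwpw1 (-1.20) passed, 5 of 8 against 3.54% of all genes. The mP/lP value of Mei4 is not read as expression, and the mP/lP interval of Mei1 overlaps that of other somatic cells. Both ratios thus end near or under somatic levels. In the same step Spo11 was higher by 0.43 on the log2 scale, short of the fold that 1.38% of all genes passed, and the median of all genes was -0.10. Over the whole span from undiff. SpG to L/Z/eP, Prdm9 (log2 2.57), Spo11 (1.67), Gm960 (1.23) and Ankrd31 (1.03) were higher, 4 of 8 against 11.8% of all genes, with the ratios of Prdm9 and Spo11 taken from undiff. SpG values that are not read as expression, and Rec114 was lower (-1.01), against 13.5%. Of the L/Z/eP cells 93.5% and of the mP/lP cells 70.7% came from the 25 dpp library, and their median depths were 1633 and 6969 UMIs, a difference whose part was not tested. Later, from mP/lP through ES, no member passed the fold at any step. Of all genes, 4.92% were higher and 0.184% lower in D than in mP/lP, 10.6% higher and 3.34% lower in RS than in D, and 10.1% higher and 10% lower in ES than in RS.

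Patterns were compared between members as the Pearson r of log2(value + 0.1) over the 9 control germ cell populations, which share libraries and cells with shared barcodes, so r is a description only. Of 28 pairs, 16 had r above 0.5 and 6 had r below 0, and no share over pairs of all genes is given beside these counts. Gm960 and Zcwpw1 were most alike (r = 0.94, Spearman's rho = 0.95), followed by the partners Mei4 and Rec114 (r = 0.93, rho = 0.85) and by Gm960 and Prdm9 (r = 0.89). Reads of Rec114 cannot all be told apart from those of Nptn, as given below. All 6 pairs with r below 0 held Spo11, and the lowest was Spo11 with Rec114 (r = -0.94, rho = -0.93). These r values include Spo11 in undiff. SpG and pL, which is not read as expression, and that with Rec114 also its values from mP/lP to ES, which lie near the Sertoli level of 0.0785, so they rest in part on background values. Spo11 and its partner Gm960 had r = -0.23, with the splice forms of Spo11 not separated. Among all tested genes other than the members, the 10 most like the mean profile of the 8 genes were Mki67 (r = 0.991), Ttc14 (r = 0.988), Dmc1 (r = 0.988), Pclo (r = 0.987), Cyb5rl (r = 0.982), Atad5 (r = 0.981), Slc25a42 (r = 0.975), Snx29 (r = 0.975), Mcm8 (r = 0.975) and Dip2c (r = 0.973). This list holds Dmc1, the strand exchange protein loaded at the breaks, Mcm8, a helicase of recombination repair, and Mki67, a proliferation marker. The 3 genes most like Spo11 were Kctd19 (r = 0.999), 5-qF-14224 (r = 0.998) and Nsun7 (r = 0.997). Those most like Prdm9 were Gal3st1 (r = 0.979), Pparg (r = 0.965) and Mgat5b (r = 0.963). For Mei1 they were Mitf (r = 0.984), Slc16a10 (r = 0.982) and Lzts3 (r = 0.980), and for Rec114 Tfap4 (r = 0.994), Fam120c (r = 0.993) and Epop (r = 0.992). Gm960 was most like Mki67 (r = 0.982), Dmc1 (r = 0.982) and Sdk1 (r = 0.980), and Zcwpw1 most like Zzef1 (r = 0.996), Cyb5rl (r = 0.989) and Mcm8 (r = 0.986). Mei4 was most like Tcf12 (r = 0.995), Fam168a (r = 0.994) and Hs2st1 (r = 0.992), and Ankrd31 most like Fam133b (r = 0.980), Gm26534 (r = 0.977) and Clec16a (r = 0.970).

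**Figure D2:**
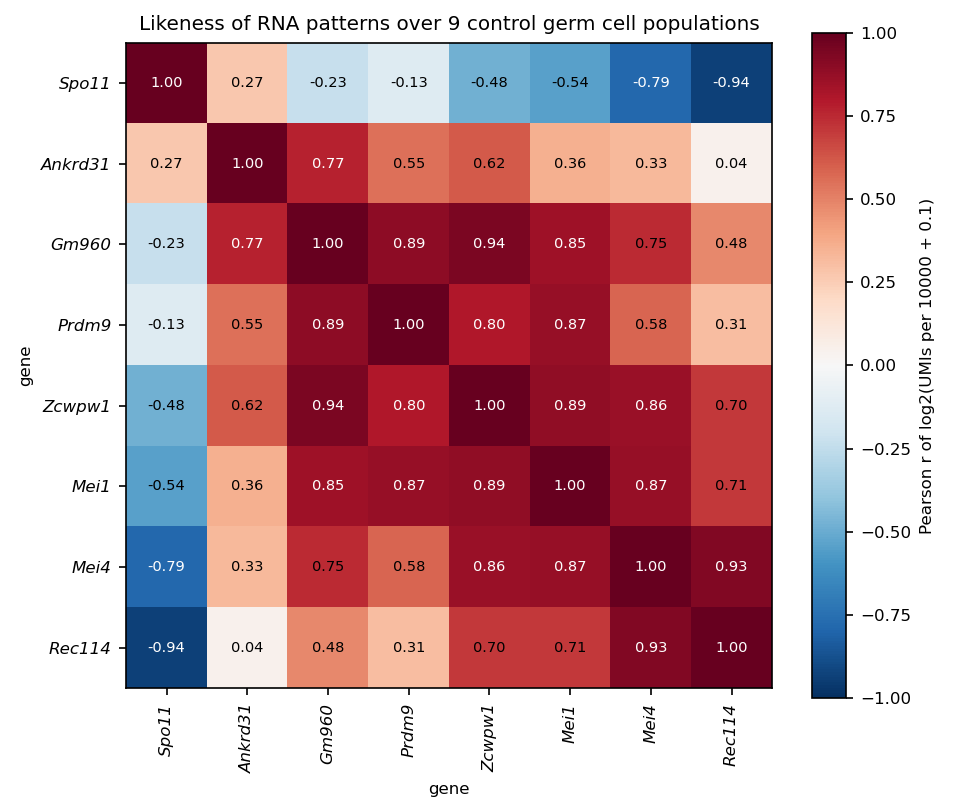
Pearson r of log2(UMIs per 10000 + 0.1) between each pair of the 8 genes over 9 control germ cell populations, on a colour scale from -1 (blue) to 1 (red). The Spo11 row is negative with 6 of the other 7 genes. Among those 7 genes r is above 0, down to 0.04 for Rec114 with Ankrd31, whose Spearman's rho is -0.13.

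The study asks what loss of NFYA does to meiotic genes before meiosis, and it compares undifferentiated spermatogonia of Cre/+ and Nfya-CKO mice. The comparison here is SpG Nfya-CKO against undiff. SpG, of which 7.89% of the cells came from Cre/+. None of the 8 genes was 2-fold lower or higher in SpG Nfya-CKO after the pseudocount, where 3.08% of all tested genes were lower and 4.09% higher. For 6 of the genes the counting intervals of both populations overlapped. Spo11 was 0.156 in undiff. SpG and 0.152 in SpG Nfya-CKO (interval 0.126–0.182, log2 -0.02). Gm960 was 0.336 in undiff. SpG and 0.312 in SpG Nfya-CKO (interval 0.274–0.353, log2 -0.08). Zcwpw1 was 1.28 in undiff. SpG and 1.32 in SpG Nfya-CKO (interval 1.245–1.41, log2 0.05). Gm960 and Zcwpw1 thus did not differ between the populations beyond their counting intervals, while both Spo11 values lie under the other somatic level and say nothing about a difference. Mei4 was 0.538 in undiff. SpG and 0.475 in SpG Nfya-CKO (interval 0.428–0.525, log2 -0.15). Rec114 was 0.338 in undiff. SpG and 0.377 in SpG Nfya-CKO (interval 0.335–0.422, log2 0.12). Ankrd31 was 3.14 in undiff. SpG and 3.11 in SpG Nfya-CKO (interval 2.99–3.23, log2 -0.01). The Mei4 values of both populations lay above the Sertoli and other somatic levels. Those of Rec114 did too, but its reads cannot all be told apart from those of Nptn, as given below. Mei1 was higher, 0.783 (0.722–0.848) against 0.352 (0.314–0.393), or 2.22-fold without a pseudocount and log2 0.97 with it. Of all genes, 95.5% had a smaller log2 ratio than Mei1. The other somatic level of Mei1 was 0.173, under that of SpG Nfya-CKO. Prdm9 was lower, 0.0513 (0.0367–0.0698) against 0.122 (0.0998–0.147), or 2.37-fold without a pseudocount and log2 -0.55 with it, but both values lay under the 0.162 of Sertoli cells. Prophase cells, which hold the highest Prdm9 levels, were 8 of 5152 cells (0.155%) of the library labelled Nfya-CKO and 22.8% to 85.3% of the other 4, and the part of their free RNA in the difference was not tested. Intervals lay apart in the lower direction for 28.7% of all genes and in the higher direction for 30%, so 1 of 8 in each direction is no more than the background.

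Against later control stages the same SpG Nfya-CKO values gave other differences, and the 3 comparisons share them. Prdm9 was 12.1-fold lower than in diff. SpG (log2 -2.25) and 19.0-fold lower than in pL (log2 -2.83). It was the only member past 2-fold after the pseudocount, beside 10.5% of all genes that were lower against diff. SpG and 4.73% against pL. None was higher, where 6.86% of all genes were against diff. SpG and 9.05% against pL. Of all genes, 0.0525% had a lower log2 ratio to pL than Prdm9. Since the SpG Nfya-CKO value of Prdm9 is under the somatic levels, the fold describes how far pL stands over it. Relative to pL, Mei4 (log2 -0.82), Gm960 (-0.75), Mei1 (-0.53) and Zcwpw1 (-0.42) were lower with intervals apart, Rec114 (-0.05) overlapped, and Ankrd31 (0.17) was higher with intervals apart. The intervals of Spo11 also lay apart (0.34), but both values are under the other somatic level and nothing is read from them. With Prdm9 those are 5 of 8 lower, against 28.4% of all genes, and Ankrd31 is 1 of 8 higher (2 if Spo11 is counted), against 39.3%. Relative to diff. SpG, Gm960 (log2 -0.61), Zcwpw1 (-0.30), Mei1 (-0.29) and Ankrd31 (-0.17) were also lower with intervals apart, Mei4 (-0.20) overlapped and Rec114 (0.33) was higher. Spo11 (-0.79) also had intervals apart, between a diff. SpG interval that overlaps that of other somatic cells and a value under it, and nothing is read from it. With Prdm9 these are 5 of 8 lower (6 if Spo11 is counted) against 34.2% of all genes, and Rec114 is 1 of 8 higher against 31.5%. The Mei1 level of SpG Nfya-CKO thus lay above undiff. SpG and under both diff. SpG and pL. The Prdm9 level lay under diff. SpG and pL, and its order with undiff. SpG is not read, since both values are under the Sertoli level. Undiff. SpG itself stood under pL in both genes, with Prdm9 8.01-fold (from a value not read as expression) and Mei1 3.35-fold higher in pL, the 2 of 8 genes past 2-fold beside 2.42% of all genes, with 6.19% lower.

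**Figure D3:**
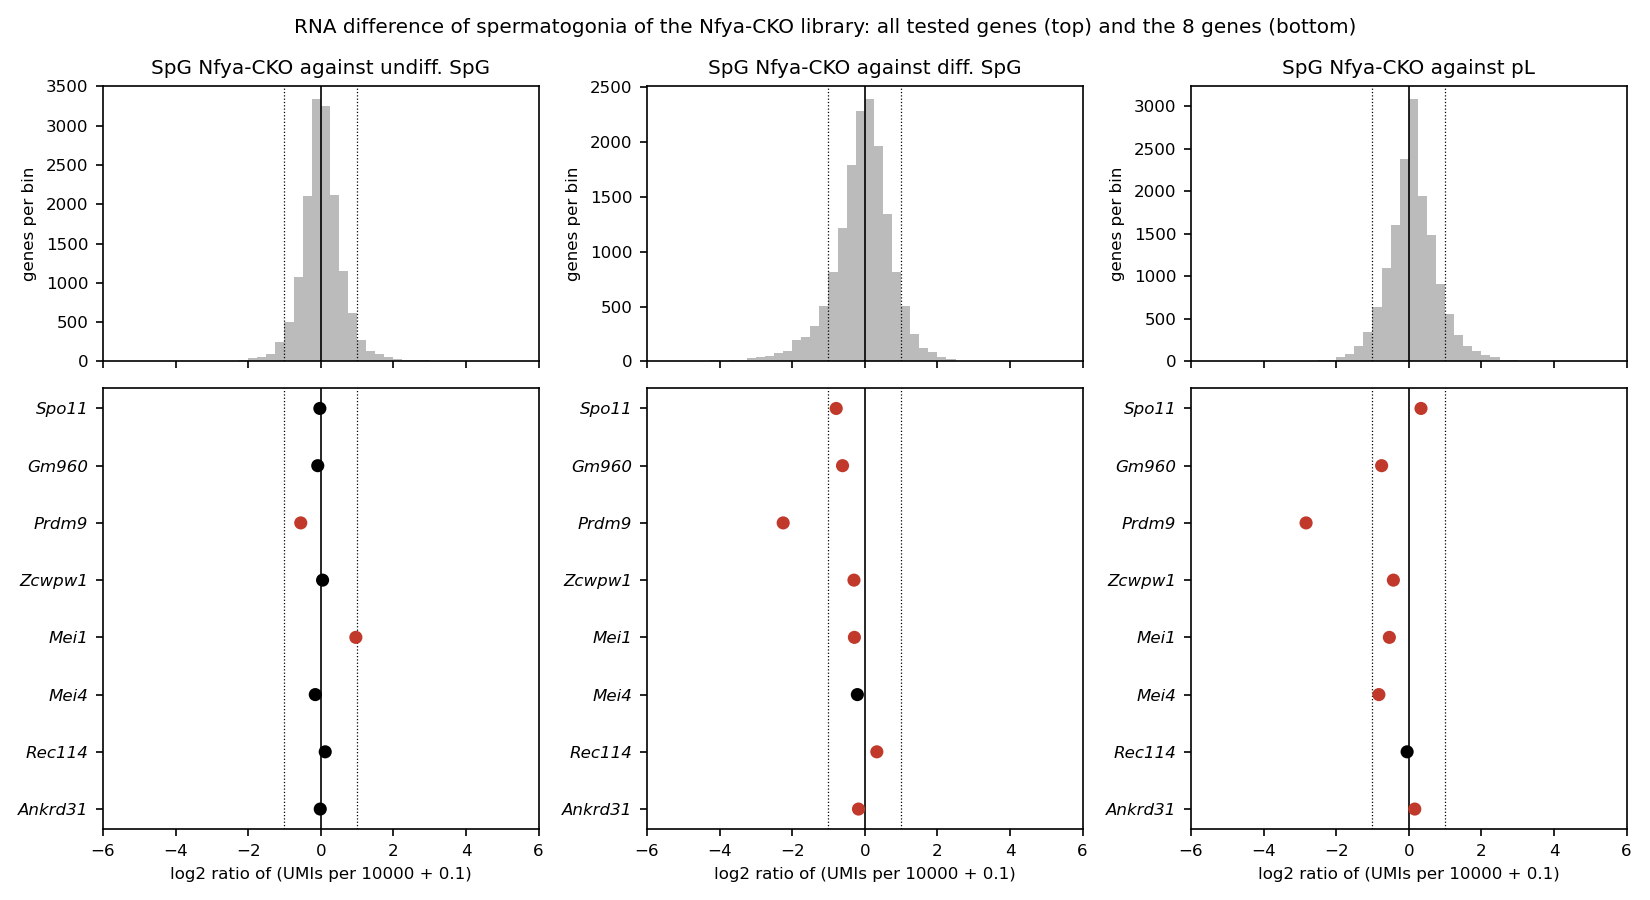
Log2 ratio of (UMIs per 10000 + 0.1) of SpG Nfya-CKO over undiff. SpG, diff. SpG and pL, for all 15250 tested genes as a histogram (top, genes per bin, values beyond the axis counted in the end bins) and for the 8 genes as points (bottom, red where the counting intervals do not overlap, dotted lines at 2-fold). Against undiff. SpG only Mei1 (log2 0.97) and Prdm9 (-0.55) are red, and Prdm9 lies beyond 2-fold against diff. SpG and pL.

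Other genes of the pathway were grouped in 3 lists, and for each list the genes furthest lower and higher are named. Of the partners and regulators of break formation, 10 of 11 were measured, and none was 2-fold lower or higher in SpG Nfya-CKO than in undiff. SpG after the pseudocount of 0.1, with a median log2 ratio of 0.09 against 0.01 over all genes. The lowest were Morc2b (0.0726 in undiff. SpG and 0.00242 in SpG Nfya-CKO, log2 -0.75) and Ewsr1 (2.56 in undiff. SpG and 2.31 in SpG Nfya-CKO, log2 -0.14). The highest were Tex15 (11.0 in undiff. SpG and 14.7 in SpG Nfya-CKO, log2 0.42) and Cxxc1 (2.06 in undiff. SpG and 2.60 in SpG Nfya-CKO, log2 0.33), whose product binds PRDM9. Of 14 genes of strand exchange and break processing, none passed 2-fold after the pseudocount, with a median of -0.12. The lowest were Meiob (0.154 in undiff. SpG and 0.0538 in SpG Nfya-CKO, log2 -0.72) and Mnd1 (0.153 in undiff. SpG and 0.0652 in SpG Nfya-CKO, log2 -0.62), both of which assist strand exchange. The highest were Exo1 (0.999 in undiff. SpG and 1.48 in SpG Nfya-CKO, log2 0.52) and Brca2 (3.09 in undiff. SpG and 4.43 in SpG Nfya-CKO, log2 0.50), which also act in repair outside meiosis. Without the pseudocount Morc2b, Meiob and Mnd1 were more than 2-fold lower, 1 of 10 in the first list and 2 of 14 in the second, against 12.4% of all genes on that scale, and no gene of the lists was 2-fold higher, against 12%. Of 8 genes of chromosome axis and cohesin, none passed with or without it, with a median of -0.0042. At the low end were Rec8 (0.140 in undiff. SpG and 0.0740 in SpG Nfya-CKO, log2 -0.47) and Hormad1 (0.493 in undiff. SpG and 0.447 in SpG Nfya-CKO, log2 -0.12), and at the high end Sycp3 (0.673 in undiff. SpG and 1.15 in SpG Nfya-CKO, log2 0.69) and Smc1b (3.38 in undiff. SpG and 3.86 in SpG Nfya-CKO, log2 0.18). In both populations Morc2b, Meiob, Rec8, Hormad1 and Sycp3 lay under their other somatic levels of 0.369, 0.320, 0.175, 0.566 and 1.254, so their values are not read as expression and nothing is read from these ratios. Their Sertoli levels were 0.00843, 0.0449, 0.203, 0.185 and 0.282, which for all but Rec8 lay under the undiff. SpG values. Which level measures the free RNA in undiff. SpG was not tested. Against pL, 2 of 10, 1 of 14 and 2 of 8 genes of the lists were 2-fold lower and none was 2-fold higher after the pseudocount, beside 4.73% and 9.05% of all genes, and without it 3, 5 and 2 were lower, beside 10.5% of all genes on that scale, and none higher, beside 24.4%. Those lower than in pL after the pseudocount were Ccdc36, Hormad1, Dmc1 and Rec8. Hormad1 is in both the first and the last list and is counted in each. The SpG Nfya-CKO values of Hormad1 and Rec8 lie under their other somatic levels, so nothing is read from their share of these counts. Against diff. SpG, 1 of 10, 3 of 14 and 1 of 8 were 2-fold lower and none higher after the pseudocount, beside 10.5% and 6.86%, and without it 2, 4 and 2 were lower, beside 19.7%, and none higher, beside 15.5%. Those lower after the pseudocount were Morc2b, Psmc3ip, Meiob, Hsf2bp and Rec8. Their SpG Nfya-CKO values lay under their other somatic levels and are not read as expression. Markers of elongating spermatids summed to 9.88 in diff. SpG and 0.103 in SpG Nfya-CKO, and those of mP/lP to 5.28 and 0.648. The part of this difference in the counts was not tested. For the 8 members the median log2 ratio to undiff. SpG was -0.02.

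NF-Y binds the pentanucleotide CCAAT, so promoter windows of 300 bases, 250 before to 50 after the start site, were taken from RefSeq (GRCm38.p6) for the members, and 7 of the 8 genes, all but Spo11, had an entry, with 2 windows each for Prdm9 and Zcwpw1. CCAAT, read on both strands (as CCAAT or ATTGG), was present in 4 of 9 windows, of 4 genes, against 37.4% of 32851 promoter windows in the table. The motif began at -46 in Rec114, -28 in Gm960, -19 in the Prdm9 window at the annotated gene start and -12 in Mei4, each time as ATTGG, with positions counted from the start site to the first letter of the motif. The RefSeq start sites of Rec114 and Mei1 lie inside the genes as GENCODE M21 annotates them, downstream of the gene starts given above, so the windows there, the Mei1 window without any of the 3 motifs included, are not those of the annotated gene starts. The GC box GGGCGG (or CCGCCC) was in 6 windows against 35.7% of all, and the E-box CACGTG, the same on both strands, only in that of Rec114, against 7.15%. The windows with CCAAT and, as the gene with the lowest signal ratio in SpG Nfya-CKO, the window of Zcwpw1 nearest its annotated gene start, which has no CCAAT, are shown 5′ to 3′ along the gene, with CCAAT or ATTGG in capitals.
Gm960, chr19:4698619-4698918, minus strand: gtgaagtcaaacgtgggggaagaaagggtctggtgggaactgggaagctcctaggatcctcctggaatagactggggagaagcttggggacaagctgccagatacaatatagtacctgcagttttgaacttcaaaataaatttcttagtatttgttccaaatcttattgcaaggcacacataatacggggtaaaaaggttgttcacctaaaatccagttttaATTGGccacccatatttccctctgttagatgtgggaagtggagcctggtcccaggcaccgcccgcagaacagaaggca
Prdm9, chr17:15564305-15564604, minus strand: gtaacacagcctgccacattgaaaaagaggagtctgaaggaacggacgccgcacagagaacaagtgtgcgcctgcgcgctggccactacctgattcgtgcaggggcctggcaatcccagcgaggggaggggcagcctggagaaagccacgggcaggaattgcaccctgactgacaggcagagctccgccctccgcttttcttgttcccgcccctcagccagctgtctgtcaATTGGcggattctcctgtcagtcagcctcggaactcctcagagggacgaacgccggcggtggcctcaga
Mei4, chr9:81863420-81863719, plus strand: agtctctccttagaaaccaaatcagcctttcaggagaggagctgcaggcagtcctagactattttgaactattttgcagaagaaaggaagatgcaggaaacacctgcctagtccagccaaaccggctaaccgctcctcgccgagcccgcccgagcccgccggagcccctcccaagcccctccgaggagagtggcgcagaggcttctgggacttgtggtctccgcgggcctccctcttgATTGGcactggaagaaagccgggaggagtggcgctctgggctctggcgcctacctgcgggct
Rec114, chr9:58741510-58741809, minus strand: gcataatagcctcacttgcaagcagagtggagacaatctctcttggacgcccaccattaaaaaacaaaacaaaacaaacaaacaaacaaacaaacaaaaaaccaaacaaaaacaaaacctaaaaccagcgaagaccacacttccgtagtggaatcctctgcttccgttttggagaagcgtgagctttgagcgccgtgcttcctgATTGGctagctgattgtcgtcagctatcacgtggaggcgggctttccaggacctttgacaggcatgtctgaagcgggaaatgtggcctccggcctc
Zcwpw1, chr5:137787552-137787851, plus strand: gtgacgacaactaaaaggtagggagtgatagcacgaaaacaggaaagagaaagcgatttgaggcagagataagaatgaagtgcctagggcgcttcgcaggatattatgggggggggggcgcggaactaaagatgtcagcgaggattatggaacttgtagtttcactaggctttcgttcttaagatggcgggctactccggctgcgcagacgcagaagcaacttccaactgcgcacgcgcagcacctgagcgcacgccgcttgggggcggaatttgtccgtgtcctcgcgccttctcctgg
A match of letters is not a binding site, and binding by NFYA was not analysed here. The authors measured it in sorted spermatogonia with antibodies against NFYA (CUT&RUN). They name Prdm9 among the NFYA-bound genes with lower promoter accessibility in NFYA-deficient spermatogonia. Their binding calls for the other members are not given here.

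Accessibility is given as the scATAC-seq signal of a gene per 1000000 of the signal of all genes in a population. The authors took promoter accessibility as mean coverage within 200 bases of a start site, but whether the matrix counts that stretch is not stated, and no counting interval can be given. Between 31.2% (pL) and 64.5% (other somatic cells) of the signal fell on 13 mitochondrial genes, so a second scale per 1000000 of nuclear signal is given where it matters. Spo11 had 32.0 in undiff. SpG, 16.4 in diff. SpG, 22.7 in pL, 15.0 in eL/L/Z, 7.15 in L/Z/eP, 6.41 in mP/lP, 9.16 in D, 11.9 in RS and 4.06 in ES. Its accessibility was highest in undiff. SpG, where its RNA was under the other somatic level, and it was lower in mP/lP, where its RNA was highest. On the nuclear scale the same held, with 53.9 in undiff. SpG and 16.2 in mP/lP. Gm960 had 24.0 in undiff. SpG, 27.6 in diff. SpG, 36.5 in pL, 29.8 in eL/L/Z, 16.9 in L/Z/eP, 15.2 in mP/lP, 17.3 in D, 19.9 in RS and 9.92 in ES. Prdm9 had 41.1 in undiff. SpG, 50.7 in diff. SpG, 56.5 in pL, 47.9 in eL/L/Z, 30.9 in L/Z/eP, 38.8 in mP/lP, 43.4 in D, 47.6 in RS and 38.3 in ES. Zcwpw1 had 78.5 in undiff. SpG, 111 in diff. SpG, 122 in pL, 90.2 in eL/L/Z, 49.99 in L/Z/eP, 57.8 in mP/lP, 69.6 in D, 81.7 in RS and 88.0 in ES. These 3 genes and Mei1 had their highest value in pL on this scale. On the nuclear scale only Zcwpw1 kept it there (178), since Gm960 was highest in eL/L/Z (54.5), Prdm9 in mP/lP (97.8) and Mei1 in diff. SpG (27.9). Mei1 had 11.4 in undiff. SpG, 18.2 in diff. SpG, 18.7 in pL, 11.2 in eL/L/Z, 5.86 in L/Z/eP, 6.003 in mP/lP, 9.46 in D, 8.14 in RS and 9.92 in ES. Mei4 had 28.5 in undiff. SpG, 24.1 in diff. SpG, 30.2 in pL, 24.5 in eL/L/Z, 15.1 in L/Z/eP, 11.1 in mP/lP, 16.2 in D, 15.1 in RS and 33.6 in ES, and its highest value, in ES, was that of a population with 124 cells that had both readouts. Rec114 had 1.91 in undiff. SpG, 3.05 in diff. SpG, 3.62 in pL, 2.47 in eL/L/Z, 1.68 in L/Z/eP, 2.13 in mP/lP, 3.78 in D, 4.55 in RS and 10.1 in ES. Its highest value was in ES as well, where its RNA was near the Sertoli level. Ankrd31 had 26.6 in undiff. SpG, 28.5 in diff. SpG, 27.7 in pL, 29.3 in eL/L/Z, 18.2 in L/Z/eP, 20.1 in mP/lP, 27.6 in D, 34.4 in RS and 22.4 in ES. It was highest in RS and lowest in L/Z/eP, the population with its highest RNA, but on the nuclear scale it was lowest in ES (39.8) and stood at 50.2 in L/Z/eP.

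From undiff. SpG to pL, where RNA of Prdm9 and Mei1 was higher, 5 of 8 genes had a signal at least 25% higher, on the ratio of value + 1, against 26.5% of all nuclear genes with a signal in both populations. They were Rec114 (1.59), Mei1 (1.59), Zcwpw1 (1.55), Gm960 (1.503) and Prdm9 (1.37), and Spo11 was lower (0.718), by a ratio of 0.8 or less as for 20.4% of genes. The Rec114 signal was low, at 0.152 of the median nuclear gene with a signal in undiff. SpG and 0.355 in pL. On the nuclear scale 4 of 8 passed, without Prdm9 (1.18), against 12.5%, and Spo11 was lower (0.620), as were 32.9% of genes. From pL to L/Z/eP all 8 genes had a ratio of 0.8 or less on the scale of all genes, as had 69.7% of all genes (5.28% were at least 25% higher), and the mitochondrial share of the signal was 31.2% in pL and 63.8% in L/Z/eP. On the nuclear scale 3 of 8 were lower, Mei1 (0.608), Spo11 (0.610) and Zcwpw1 (0.777), against 20.6% of all genes, and none was at least 25% higher, against 31.5%, with the largest ratio that of Ankrd31 (1.24). Over the 9 control germ cell populations, RNA and nuclear-scale accessibility went together for Gm960 (r = 0.81, rho = 0.90) and Mei1 (r = 0.75, rho = 0.75) and ran opposite for Spo11 (r = -0.68, rho = -0.80) and Rec114 (r = -0.61, rho = -0.63), as a description, since the populations share libraries and the low RNA values of Spo11 and Rec114 lie near or under the somatic levels. The scATAC-seq signal of Rec114 was also under that of the median nuclear gene with a signal in each of these populations. For Ankrd31 the sign of r turned with the scale, from -0.30 to 0.53.

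**Figure D4:**
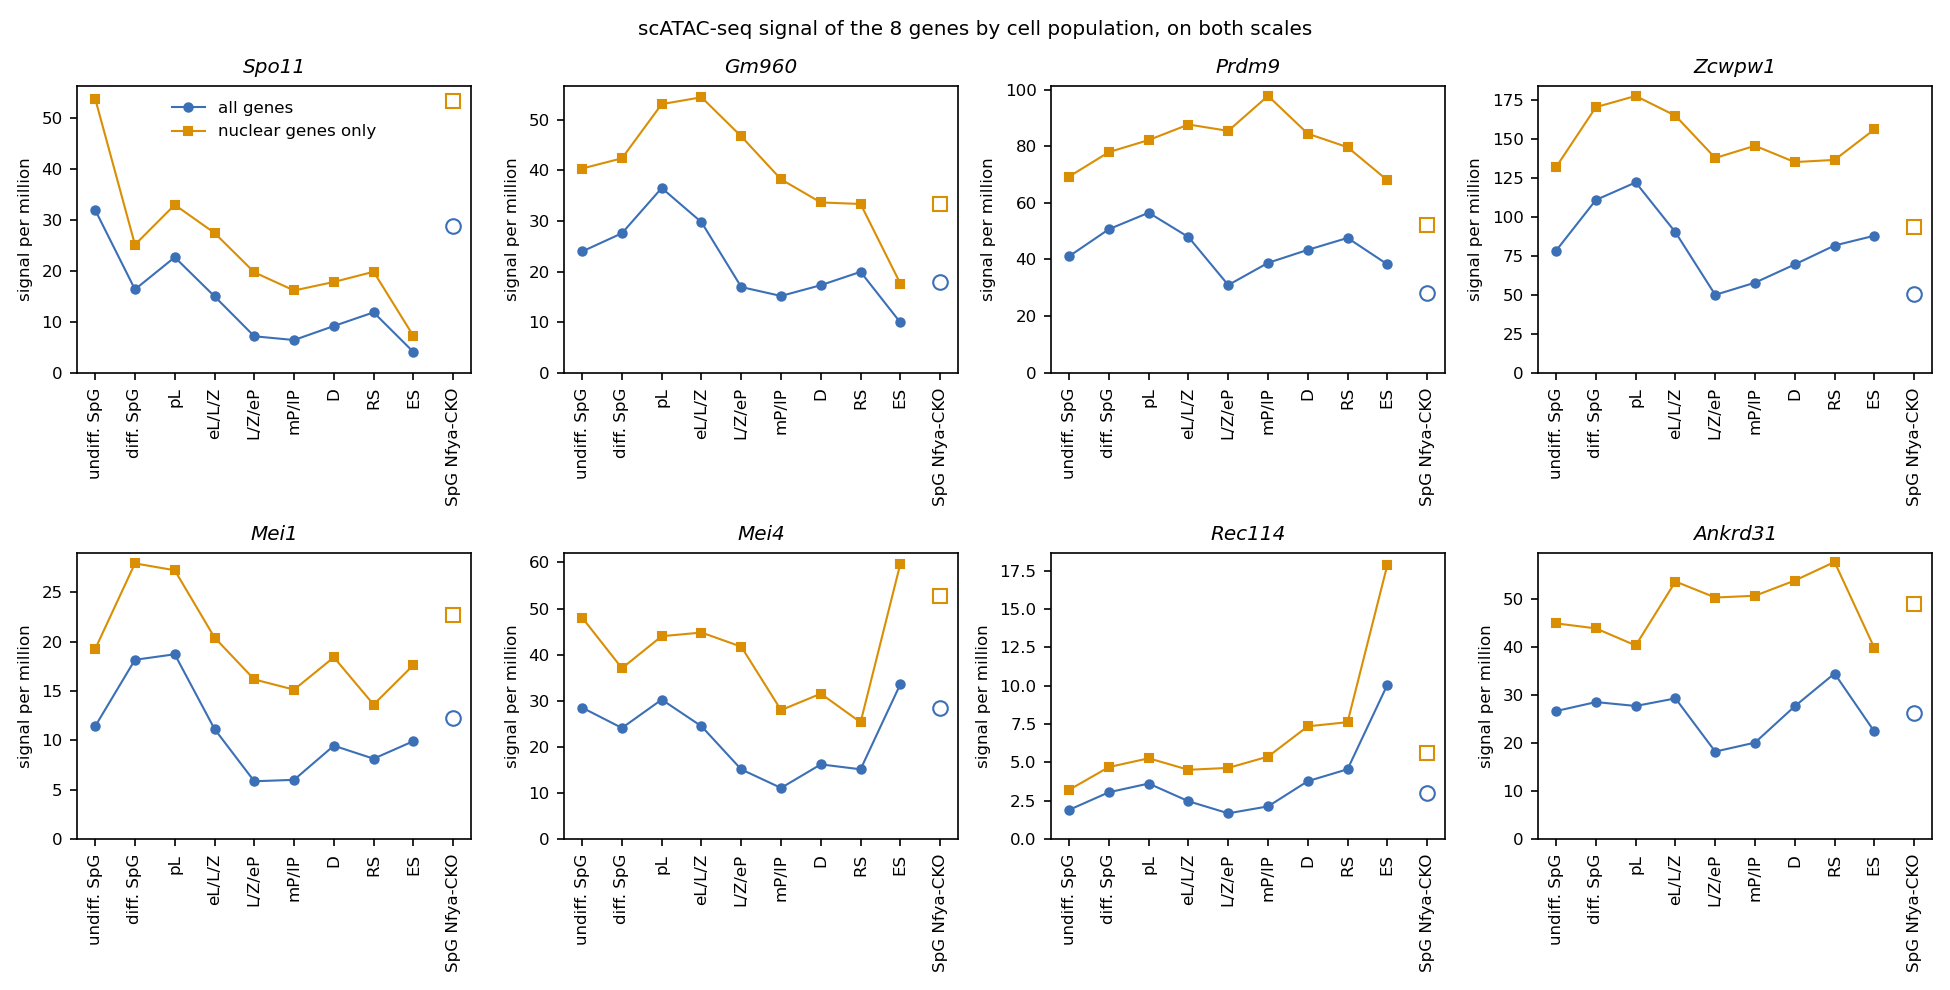
scATAC-seq signal of the 8 genes per 1000000, with all genes (blue circles) or nuclear genes only (orange squares) as the total, in 9 control germ cell populations (joined points) and SpG Nfya-CKO (open points), on linear axes from 0. The open points of Prdm9 (28.1 and 52.0) and Zcwpw1 (50.5 and 93.7) lie under those of undiff. SpG on both scales.

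In SpG Nfya-CKO, 3 of the 8 genes had a signal ratio to undiff. SpG of 0.8 or less, against 21.3% of all nuclear genes with a signal in both populations. Zcwpw1 had 78.5 in undiff. SpG and 50.5 in SpG Nfya-CKO, a ratio of 0.648, and 4.53% of genes had a lower ratio. Prdm9 had 41.1 and 28.1, a ratio of 0.690 with 7.59% of genes lower, and Gm960 had 24.0 and 18.0, a ratio of 0.761 with 15.6% lower. Both genes of break sites and the SPO11 partner thus had lower signals, while the RNA of Zcwpw1 and Gm960 overlapped between the same populations. Spo11 (0.903), Ankrd31 (0.989), Mei4 (0.997) and Mei1 (1.07) differed by less. Rec114 was higher, at 3.03 against 1.91 (ratio 1.39), beside 22.1% of all genes. Its signal was low, at 0.152 of the median nuclear gene with a signal in undiff. SpG and 0.211 in SpG Nfya-CKO. With a pseudocount of 5 its ratio was 1.16. In all, 6 of 8 ratios lay below 1, against 52.6% of all genes. On the nuclear scale, which moved the median ratio of all genes from 0.981 to 1.07, 4 of 8 lay below 1 (41.3% of all genes) and 2 of 8 were at 0.8 or less (13.7%), namely Zcwpw1 (0.711) and Prdm9 (0.754), with Gm960 at 0.830, and Rec114 (1.57) was again the 1 member at least 25% higher (31.5%). Lower signals were not particular to the members, whose median ratio was 0.946 on the scale of all genes and 1.04 on the nuclear scale. The median was 0.916 and 0.989 for the list of partners and regulators. For strand exchange and break processing it was 0.801 and 0.876, and for axis and cohesin 0.694 and 0.759. Compared with diff. SpG, Zcwpw1 (0.460), Prdm9 (0.562), Gm960 (0.665) and Mei1 (0.692) were at 0.8 or less, 4 of 8 beside 39.1% of all genes, and Spo11 (1.71) was 1 of 8 at least 25% higher, beside 31%. On the nuclear scale 3 of 8 were at 0.8 or less, Zcwpw1 (0.551), Prdm9 (0.672) and Gm960 (0.791), against 28.6%, and 2 were at least 25% higher, Spo11 (2.08) and Mei4 (1.41), against 41.4%, with Mei1 at 0.820 and Rec114 at 1.16. Compared with pL, Zcwpw1 (0.418), Prdm9 (0.505), Gm960 (0.506) and Mei1 (0.672) were lower and Spo11 (1.26) higher, 4 of 8 lower beside 36% of all genes and 1 of 8 higher beside 30.9%. The mitochondrial share of the signal was 31.2% in pL and 46.0% in SpG Nfya-CKO, and on the nuclear scale 3 of 8 were lower, Zcwpw1 (0.529), Gm960 (0.635) and Prdm9 (0.637), against 20.7%, and Spo11 (1.598) was 1 of 8 higher, against 45.6%, with Mei1 at 0.840 and Rec114 at 1.06. Mean TSS enrichment, the authors' ratio of coverage at start sites over flanks, was 7.99 in the 470 SpG Nfya-CKO cells with both readouts and 12.7 in the 1230 of undiff. SpG, and its part in the lower signals was not tested. The CCAAT pentanucleotide was in windows of Prdm9 and Gm960, which were lower, though Gm960 was at 0.830 on the nuclear scale against undiff. SpG. It was also in those of Mei4, which was not lower, and Rec114, which was higher from a low signal. It was in no window of Zcwpw1, which was lower, nor of Mei1 and Ankrd31, which differed by less. The windows of Rec114 and Mei1 are not those of the annotated gene starts.

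Some members overlap other annotated genes (GENCODE M21), and strand use in counting is not stated. Rec114 shares 5106 bases with Nptn on the opposite strand, which stood at 1.51 UMIs per 10000 in undiff. SpG and 1.18 in SpG Nfya-CKO, so reads of Rec114 there cannot be told apart from reads of Nptn. The same limit holds for the stage pattern of Rec114 and its likeness to Mei4, and Nptn levels in other populations are not given here. Zcwpw1 shares 670 bases with Pilra on the opposite strand, which stood at 0.00817 in undiff. SpG. Gm960, Prdm9, Mei4 and Ankrd31 overlap only pseudogenes or small annotated transcripts that were not rows of the matrix, and Spo11 and Mei1 overlap no annotated gene.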

How the data were processed

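RNA and accessible chromatin were measured together in single nuclei of testes under 5 conditions, with 1 library per condition and assay. The authors aligned RNA reads with STAR 2.7.10b and scATAC-seq reads with BWA 0.7.12 to mm10, shifted the fragments for the transposase with bedtools 2.27.1, kept cells with at least 500 genes and under 5% mitochondrial UMIs (Seurat 5.2.1) or at least 1000 fragments and a TSS score of 4 (ArchR 1.0.3), and removed doublets. The authors describe promoter accessibility as mean coverage within 200 bases of a start site, and took start sites from GENCODE VM23 for another assay. Whether either holds for the scATAC-seq matrix, and the strand use, are not given in the sources used here. Clusters were named by the authors, and no clustering was repeated.

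The deposited matrices hold the natural log of 1 plus a population's mean. In the RNA matrix this mean is over cells of UMIs per 10000, since its smallest values match 1 UMI in the deepest cell in 11 of 13 populations. The deposited tables of cells give each cell's UMI count or fragment count, its library and population, and the TSS enrichment ratio that the authors computed. These tables list 45250 scRNA-seq cells, 49 of them without a library name, and 343866 scATAC-seq cells. Altogether 21 other columns of per-cell values were not used.

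Values were converted back by the exponential minus 1. RNA ratios used a pseudocount of 0.1 UMIs per 10000 over 15250 genes with a mean of at least 0.05 over the populations. scATAC-seq values were scaled to a total of 1000000 and ratios used a pseudocount of 1 over the nuclear genes with a signal in both populations. The 95% counting intervals are exact Poisson intervals on the UMIs behind a mean, estimated from the cell depths, and cover counting error only, since UMIs of 1 library are not replicates. No test was run, because no condition has a second library. Changes were called by size alone, at 2-fold for RNA and at a ratio of 0.8 or less or at least 25% higher for scATAC-seq. The 8 members, 3 pathway lists, markers and motifs were chosen with earlier results of these data known. All 8 members are named, with the 2 lowest and 2 highest genes of each list, the 10 genes most like the mean profile and the 3 most like each member. Other pseudocounts, filters, scales and control populations were tried. The conversion and interval code was tested on simulated data. Python 3.11.15, numpy 2.4.6, pandas 2.3.3, scipy 1.17.1 and matplotlib 3.10.9 were used.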

Additional observations from a re-analysis of the deposited data

How the results depend on the processing

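Of 139 values recomputed under other settings, 117 moved less than the limit set for them. Of the 104 RNA and scATAC-seq ratios of single members among them, 26 took the opposite direction, 22 with another control population and 4 with centred ratios or without mitochondrial genes. They include, against diff. SpG and pL in turn, the RNA log2 ratio of Mei1 (0.97 against undiff. SpG, then -0.29 and -0.53), the scATAC-seq ratios of Spo11 (0.903, then 1.71 and 1.26), Mei1 (1.07, then 0.692 and 0.672) and Rec114 (1.39, then 0.995 and 0.873). With both these controls and without mitochondrial genes, a choice made after seeing the data, Rec114 did not turn (1.16 and 1.06, against 1.57 for undiff. SpG), while Mei1 was at 0.820 and 0.840. The count of members at least 2-fold lower in RNA in SpG Nfya-CKO was 0 against undiff. SpG and 1, Prdm9, with diff. SpG or pL as the control. The count at least 2-fold higher was 0 with the pseudocount of 0.1 and 1, Mei1, with a pseudocount of 0.02. Of the 10 genes most like the mean profile, 2 were shared with the list by Spearman's rho, 6 with a pseudocount of 0.5 and 4 over all 13 populations. No library could be left out, because the deposited values are pooled. No paired analysis was possible because each condition has 1 library per assay. Neighbours in level were told apart least for Rec114, whose intervals overlapped in 10 of 11 pairs.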

Other observations

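The unknown group, 99 cells, was compared with no other population above. It entered the mean used to filter low genes and the list of like genes over all 13 populations. The RNA of the 8 genes there lay between 0.0571 UMIs per 10000 for Mei4 (95% counting interval 0.00301 to 0.266) and 1.27 for Ankrd31 (0.848 to 1.82).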
